A study of Homo sapiens with 15 samples.

Results

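Transcripts of clustered histone genes were measured in MCF-10A, an immortalized human breast epithelial line that does not form tumours, in which p63 had been knocked down or its isoforms overexpressed. p63 is a relative of p53 that marks basal epithelial cells and has forms with (TA) and without (ΔN) an N-terminal activating domain. The genes were taken by name: each had a probe set annotated to a single symbol beginning H1-, H2AC, H2BC, H3C or H4C and a number, and each was represented by the probe set of highest mean over all arrays. This gave 42 of the 11963 genes measured, made up of 7 linker (H1), 8 H2A, 12 H2B, 7 H3 and 8 H4 genes. The RefSeq gene table (GRCh38.p14) places 38 of them on chromosome 6 and H2AC25 and H2BC21 on chromosome 1. H1-10 on chromosome 3 meets the naming rule but is a solitary gene, and H2BC12L lies on chromosome 21, also apart from the clusters.

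The knockdown arm comprised 2 arrays each of cells given an shRNA vector control, the hairpin shDBD, which targets every p63 isoform, and the hairpin shTA, which targets only the TA forms. The overexpression arm comprised 3 arrays each of a vector control, the isoform ΔNp63α and the isoform TAp63γ. All cells were the same line and were collected 48 hours after retroviral or adenoviral infection; the labels do not say which virus served which arm. Replicates are labelled biological, with no word on whether they were separate infections, so p-values measure only the spread between these samples. p63's own transcript was not analysed here, and the group labels could not be checked against it.

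Histones package DNA: pairs of H2A, H2B, H3 and H4 form the nucleosome core and H1 binds the linker between cores. Most clustered histone genes are transcribed during S phase, and their messenger RNAs normally end in a conserved stem-loop in place of a poly(A) tail. Some of these genes also give polyadenylated transcripts, which are described in cells that have left the cell cycle or are differentiating. Standard labelling for these arrays usually primes from poly(A), so stem-loop transcripts are expected to be poorly represented; the labels do not name the primer. Family members are also near-identical in their coding sequence, so a probe set named for a single gene can take signal from its paralogs, and every gene name below carries that uncertainty.

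The promoters of 4 genes that rose with shDBD and of 1 H2B gene that did not pass the test are printed to show the elements that clustered histone genes share. Each run is the RefSeq GRCh38.p14 sequence from 250 bases before to 50 bases after the annotated start, 5′ to 3′ on the gene's strand. Capitals mark the CCAAT box, the TATA box (searched as TATAAA), the octamer (ATTTGCAT) and the H1 box (AAACACA), on either strand; where motifs overlap, the joined letters are capitals.
H1-2 (chr6:26056421-26056720, minus strand, linker histone): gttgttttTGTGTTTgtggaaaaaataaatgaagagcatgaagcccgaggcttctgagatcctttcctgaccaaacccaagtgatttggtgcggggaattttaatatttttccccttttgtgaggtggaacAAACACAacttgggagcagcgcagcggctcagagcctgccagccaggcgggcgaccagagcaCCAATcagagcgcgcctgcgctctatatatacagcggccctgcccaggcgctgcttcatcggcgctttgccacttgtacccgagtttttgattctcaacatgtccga
H2BC12 (chr6:27146809-27147108, minus strand, rose): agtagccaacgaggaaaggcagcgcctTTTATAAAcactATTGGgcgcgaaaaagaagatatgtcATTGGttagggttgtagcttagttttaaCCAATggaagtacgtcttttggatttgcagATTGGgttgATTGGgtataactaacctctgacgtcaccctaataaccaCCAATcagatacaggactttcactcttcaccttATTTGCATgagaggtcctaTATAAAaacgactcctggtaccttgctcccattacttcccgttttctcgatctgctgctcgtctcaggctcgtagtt
H2BC21 (chr1:149886633-149886932, minus strand, rose): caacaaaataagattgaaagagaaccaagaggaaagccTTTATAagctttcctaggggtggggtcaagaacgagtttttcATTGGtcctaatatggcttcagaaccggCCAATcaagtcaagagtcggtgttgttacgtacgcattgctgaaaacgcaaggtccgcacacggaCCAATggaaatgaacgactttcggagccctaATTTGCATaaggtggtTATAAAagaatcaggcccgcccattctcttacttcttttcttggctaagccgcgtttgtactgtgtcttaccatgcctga
H2BC5 (chr6:26157871-26158170, plus strand, rose): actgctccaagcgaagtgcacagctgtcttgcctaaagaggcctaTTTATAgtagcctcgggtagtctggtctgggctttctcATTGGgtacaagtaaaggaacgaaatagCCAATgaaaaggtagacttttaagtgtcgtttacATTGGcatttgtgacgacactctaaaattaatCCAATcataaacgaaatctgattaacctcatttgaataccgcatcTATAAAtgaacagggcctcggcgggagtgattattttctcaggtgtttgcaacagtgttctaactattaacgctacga
H2BC14 (chr6:27814772-27815071, plus strand, not passing the test): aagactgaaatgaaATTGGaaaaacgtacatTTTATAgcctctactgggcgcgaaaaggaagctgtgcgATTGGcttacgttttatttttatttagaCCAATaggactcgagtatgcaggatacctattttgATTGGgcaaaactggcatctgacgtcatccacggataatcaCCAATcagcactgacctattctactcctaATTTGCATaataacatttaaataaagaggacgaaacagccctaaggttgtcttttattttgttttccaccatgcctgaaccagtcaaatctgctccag

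Promoter sequences were found for 39 of the 42 genes. CCAAT stood in 33 of them (84.6%, against 34.6% of all 35116 promoters in the table) and TATAAA in 26 (66.7% against 11.5%). The octamer, the binding sequence of POU2F1, stood in 14 (35.9% against 1.77%), and all 14 were H2A or H2B genes. The H1 box stood in 6 of 7 H1 promoters and in 5.64% of all promoters. The letters of an E2F core, TTTGGCGC, were in 0 of 39 and in 0.652% of all promoters. Of the genes that rose with shDBD, 7 of 10 held the octamer, against 7 of 29 of the others; within H2B the counts were 4 of 5 and 4 of 6. Both H2BC12, which rose, and H2BC14, which did not pass the test, hold the octamer. A match describes letters and shows no binding.

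Values are log2 expression from the authors' RMA processing, and a level can be compared between groups for 1 probe set but not between probe sets. Replicate arrays correlated at 0.9976 to 0.998 in the knockdown arm and 0.9925 to 0.9979 in the overexpression arm. Of the 42 genes, 21 lay above their array's 20th percentile on all 15 arrays; the other 21 were not shown to be above background throughout. Of the probe sets, 12 carried the manufacturer's x or s suffix, which marks probes shared with other transcripts. KRT5, a basal keratin, lay between 12.72 and 14.15 on every array. Of 6 luminal markers, KRT8, KRT18, GATA3 and ESR1 were above the 20th percentile on all 15 arrays, and KRT19 and PGR on 0. The fibroblast markers COL1A1, COL1A2 and PDGFRB and the immune markers PTPRC and CD3D were above it on all 15, and COL3A1 on 1. Of 3 endothelial markers, CDH5 was above the 20th percentile on 0 arrays, and PECAM1 and VWF, at between 5.28 and 6.93, were above it on all 15; their part in the results was not tested. A gene was called when limma's test, adjusted by Benjamini-Hochberg over all 11963 genes of a comparison, fell below 0.05.

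Knockdown with shDBD raised a subset of histone transcripts, among them the linker histone H1-2, the H2B genes H2BC5, H2BC21, H2BC12L, H2BC6, H2BC9 and H2BC12, H4C8 and H2AC6, by between 1.05 and 1.85 on the log2 scale. Of the 42 genes, 11 were called higher (26.2%) and 0 lower; 21.3% of all genes were called, 11.1% higher and 10.2% lower. At an unadjusted p under 0.05, 14 were higher and 1 lower. By class, 1 of 7 H1, 3 of 8 H2A, 6 of 12 H2B, 0 of 7 H3 and 1 of 8 H4 genes were called higher. Calls also went with signal level: 9 of the 21 genes above the 20th percentile on all arrays were higher, and 2 of the other 21. Every H2B gene not called was among the latter, as were H3C1, H3C2, H3C7 and H3C11. The median change was 0.11 over the 42 genes and 0.0004 over all genes. Arrays did not overlap between the groups for 26 of the 42 genes, against 61.7% of all genes.

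H1-2, a somatic linker histone, read 8.48 and 8.62 on the vector arrays, 10.35 and 10.45 with shDBD and 9.01 and 9.49 with shTA. Both shDBD arrays stood above both shTA arrays, which stood above both vector arrays. The shDBD change was 1.85 ± 0.13 (SE, n = 2 per group, adjusted p = 1.15e-07), rank 18 from the highest among the 11963 genes. The other 6 H1 genes did not pass: H1-1, H1-3, H1-4, H1-5 and the testis form H1-6 changed by between -0.19 and 0.18, and H1-10 by -0.45 ± 0.21 (adjusted p = 0.156). H1-10 was called lower with the knockdown arm fitted alone (limma, adjusted p = 0.002) and without ΔNp63α replicate 3 (adjusted p = 0.036).

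H2BC5 read 9.30 and 9.18 with vector, 10.73 and 10.86 with shDBD and 9.93 and 10.04 with shTA. H2BC21 read 7.67 and 7.61 with vector, 9.11 and 9.07 with shDBD and 8.54 and 8.37 with shTA. The 3 groups kept the same order, without overlap, for both of these core histone genes. Their shDBD changes were 1.56 ± 0.09 (adjusted p = 1.84e-08) and 1.45 ± 0.17 (adjusted p = 1.55e-05). A second H2BC5 probe set gave 1.13.

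H2BC12 read 10.86 and 10.87 with vector, 11.92 and 11.90 with shDBD and 11.30 and 11.36 with shTA. H2BC12L read 9.64 and 9.62 with vector, 10.81 and 10.85 with shDBD and 10.07 and 10.08 with shTA. Replicates of either gene lay close together beside the steps between groups. The shDBD changes were 1.05 ± 0.09 (adjusted p = 8.49e-07) and 1.20 ± 0.08 (adjusted p = 6.71e-08). H2BC12L carries an x suffix and H2BC12 does not.

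H2BC6 read 7.79 and 7.74 with vector, 8.88 and 8.93 with shDBD and 8.14 and 8.27 with shTA. H2BC9 read 7.44 and 7.62 with vector, 8.63 and 8.65 with shDBD and 7.84 and 8.18 with shTA. These H2B genes showed the same order of groups. They changed by 1.14 ± 0.10 (adjusted p = 1.08e-06) and 1.11 ± 0.13 (adjusted p = 1.62e-05) with shDBD. The remaining 6 H2B genes did not pass, with changes between -0.08 and 0.25.

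Among H2A genes, H2AC6 read 8.79 and 8.81 with vector, 9.85 and 9.93 with shDBD and 9.50 and 9.69 with shTA, and so stood higher on all 4 hairpin arrays. Its shDBD change was 1.09 ± 0.14 (adjusted p = 3.72e-05). H2AC8 changed by 0.88 ± 0.19 (adjusted p = 0.00343) and H2AC14 by 0.39 ± 0.11 (adjusted p = 0.0157). H4C8 was the H4 gene called: it read 4.65 and 4.90 with vector, 6.27 and 6.01 with shDBD and 5.23 and 5.29 with shTA, a change of 1.36 ± 0.13 (adjusted p = 1.89e-06). H4C8 was above the 20th percentile on the 2 shDBD arrays alone, and the level with vector is near background. The 7 H3 genes changed by between -0.09 and 0.18.

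Probe design and cell cycle values moved with this result. Of the 11 called genes, 3 sat on unsuffixed probe sets (of 30) and 8 on x or s probe sets (of 12); restricting all genes to unsuffixed probe sets left 3 called. The part of cross-hybridisation in the result was not tested. Of 22 S-phase genes measured, 20 were lower with shDBD and 0 higher, where 10.2% of all genes were lower and 11.1% higher. Their median change was -1.09, and 22 were lower at an unadjusted p under 0.05. More cells outside S phase and less RNA per cell cannot be told apart in bulk samples. The 3′ minus 5′ signal of the actin control probe sets, a measure of RNA integrity and labelling, was -0.09 ± 0.01 (SD) with vector, 0.07 ± 0.03 with shDBD and 0.10 ± 0.14 with shTA; its part was not tested.

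**Figure D1:**
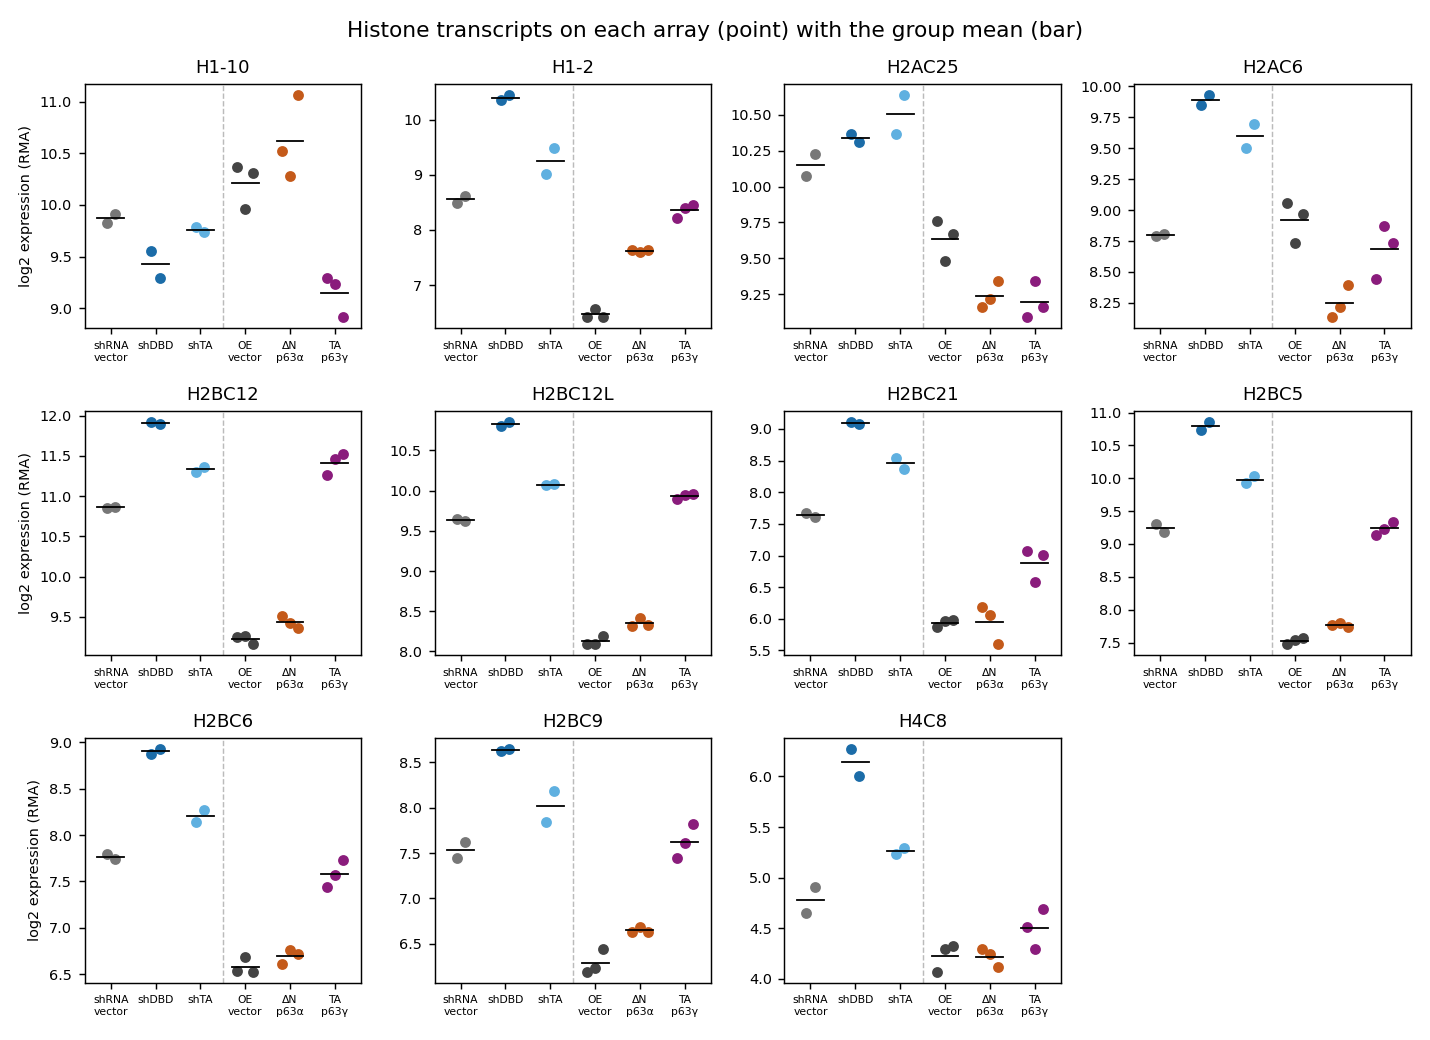
Log2 expression (RMA, vertical axes with different ranges) of 11 histone genes on each of 15 arrays, by group; points are arrays, bars are group means, and the dashed line separates the knockdown arm from the overexpression arm. H1-2 rises from 8.55 with shRNA vector to 10.40 with shDBD, and H2BC12 from 9.23 with overexpression (OE) vector to 11.42 with TAp63γ.

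The shTA hairpin raised part of the same set by smaller amounts. Of the 42 genes, 7 were higher (16.7%) and 0 lower, where 2.29% of all genes were called (1.44% higher and 0.853% lower); at an unadjusted p under 0.05 the counts were 11 and 1. All 7 were also called with shDBD, which shares the vector arrays. They were H2BC21 (0.82 ± 0.17, adjusted p = 0.0193), H2AC6 (0.80 ± 0.14, adjusted p = 0.00599), H2BC5 (0.74 ± 0.09, adjusted p = 0.000279) and H1-2 (0.70 ± 0.13, adjusted p = 0.0104), with H2BC12, H2BC12L and H2BC6 between 0.44 and 0.47. The second H2BC5 probe set gave 0.39 with shTA and did not pass (adjusted p = 0.0792 over all probe sets). H2BC9 and H4C8, both at 0.48, missed the threshold (adjusted p = 0.0713 for each), and the H3 genes lay between 0.01 and 0.16. With the knockdown arm fitted alone, H2BC9 and H4C8 passed (limma, adjusted p = 0.0178 and 0.0193). The median was 0.09 over the 42 genes and -0.01 over all genes, and arrays did not overlap for 24 of the 42, against 50.7% of all genes.

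The calls with shTA rested on few arrays. Leaving out shRNA vector replicate 1, shRNA vector replicate 2 or shTA replicate 2 left 1 called gene, and leaving out shTA replicate 1 left 3; H2BC5 stayed called in each case. All 7 genes kept their direction, with H1-2 between 0.45 and 0.94 over these 4 omissions. On unsuffixed probe sets 2 genes were called. With shTA 1 of 22 S-phase genes was called lower (CDC6, -0.77 ± 0.19, adjusted p = 0.0417), and 7 were lower at an unadjusted p under 0.05. Their median change was -0.15, with 19 below 0 and 3 above, a smaller shift in the direction seen with shDBD. Of all genes, 0.853% were called lower with shTA.

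Set directly against shTA, shDBD gave higher signal for 9 of the 42 genes and lower for 0, where 18.4% of all genes were called (9.14% higher and 9.23% lower); 11 and 0 passed an unadjusted p of 0.05. H1-2 differed most, by 1.15 ± 0.13 (adjusted p = 1.61e-05). H4C8 differed by 0.88, H2BC5 by 0.81, H2BC12L by 0.75, H2BC6 by 0.70, H2BC21 by 0.63, H2BC9 by 0.62, H2AC8 by 0.59 and H2BC12 by 0.58. H2AC6 differed by 0.29 ± 0.14 and did not pass (adjusted p = 0.192). With unsuffixed probe sets alone, 2 genes were called. Arrays did not overlap for 20 of the 42 genes, against 60.3% of all genes.

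TAp63γ overexpression raised many of the H2B genes seen with the hairpins. Of the 42 genes, 10 were higher and 4 lower (33.3%), against 43.4% of all genes called (20.5% higher and 22.8% lower). The share went with signal level: 52.4% of the 21 genes above the 20th percentile on all arrays were called, and 14.3% of the other 21. Sizes were large for a few: H2BC12 rose by 2.19 ± 0.08 (n = 3 per group, adjusted p = 3.53e-12), rank 99 of 11963. Higher genes were 1 of 7 H1, 2 of 8 H2A, 7 of 12 H2B, 0 of 7 H3 and 0 of 8 H4. They were 8 of the 21 genes above the 20th percentile on all arrays and 2 of the other 21. At an unadjusted p under 0.05, 0 H3 genes and 2 H4 genes were higher. Arrays did not overlap for 15 of the 42 genes, against 49.9% of all genes.

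H2BC12 read 9.26, 9.27 and 9.16 with vector, 9.52, 9.43 and 9.36 with ΔNp63α and 11.27, 11.46 and 11.52 with TAp63γ. H1-2 read 6.43, 6.57 and 6.42 with vector, 7.64, 7.59 and 7.64 with ΔNp63α and 8.22, 8.40 and 8.46 with TAp63γ. TAp63γ arrays were the highest for both genes, and ΔNp63α arrays lay well between the other groups only for H1-2. H1-2 rose by 1.89 ± 0.11 with TAp63γ (adjusted p = 1.38e-09).

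H2BC12L read 8.10, 8.09 and 8.19 with vector, 8.32, 8.41 and 8.33 with ΔNp63α and 9.89, 9.95 and 9.95 with TAp63γ. H2BC5 read 7.47, 7.53 and 7.57 with vector, 7.77, 7.79 and 7.74 with ΔNp63α and 9.14, 9.23 and 9.33 with TAp63γ. Neither gene's groups overlapped, and the ΔNp63α step was small beside that of TAp63γ. With TAp63γ the changes were 1.81 ± 0.07 (adjusted p = 6.29e-12) and 1.71 ± 0.08 (adjusted p = 6.7e-11); the second H2BC5 probe set gave 0.87.

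H2BC9 read 6.19, 6.24 and 6.44 with vector, 6.63, 6.69 and 6.62 with ΔNp63α and 7.45, 7.61 and 7.82 with TAp63γ. H2BC6 read 6.54, 6.68 and 6.53 with vector, 6.61, 6.76 and 6.72 with ΔNp63α and 7.44, 7.57 and 7.73 with TAp63γ. Both stood apart with TAp63γ, and for H2BC6 the ΔNp63α and vector arrays overlapped. The TAp63γ changes were 1.34 ± 0.11 (adjusted p = 6.02e-08) and 0.999 ± 0.084 (adjusted p = 1.002e-07).

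H2BC21 read 5.88, 5.96 and 5.98 with vector, 6.19, 6.06 and 5.60 with ΔNp63α and 7.08, 6.58 and 7.002 with TAp63γ, so TAp63γ was higher on every array while ΔNp63α overlapped the vector. It rose by 0.95 ± 0.14 with TAp63γ (adjusted p = 4.07e-05). H2AC8 rose by 0.63 ± 0.16, H2AC14 by 0.25 ± 0.09 and H2BC3 by 0.24 ± 0.07. Of these, H2AC8 and H2BC3 were not above the 20th percentile on all arrays.

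The linker histone H1-10 moved the other way from H1-2 under TAp63γ. It read 10.37, 9.96 and 10.31 with vector, 10.52, 10.28 and 11.07 with ΔNp63α and 9.30, 9.24 and 8.91 with TAp63γ. Every TAp63γ array was below every other array of the arm, a fall of 1.06 on the log2 scale (SE 0.17, adjusted p = 7.76e-05). H1-10 is expressed independently of replication and stands outside the clusters. The other genes called lower were H4C11 (-0.51 ± 0.18, adjusted p = 0.0317, with arrays that overlapped), H2AC25 (-0.44 ± 0.10, adjusted p = 0.00187) and H2BC13 (-0.26 ± 0.07, adjusted p = 0.00641), the last below the 20th percentile on all arrays.

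On unsuffixed probe sets, TAp63γ left 4 genes higher and 2 lower of 30. H2BC12 and H1-2, with the largest changes, are among them. Of 22 S-phase genes, 11 were higher and 3 lower with TAp63γ, with a median of 0.36. The share called was 63.6%, against 43.4% of all genes. The part of S-phase genes in the histone result was not tested.

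**Figure D2:**
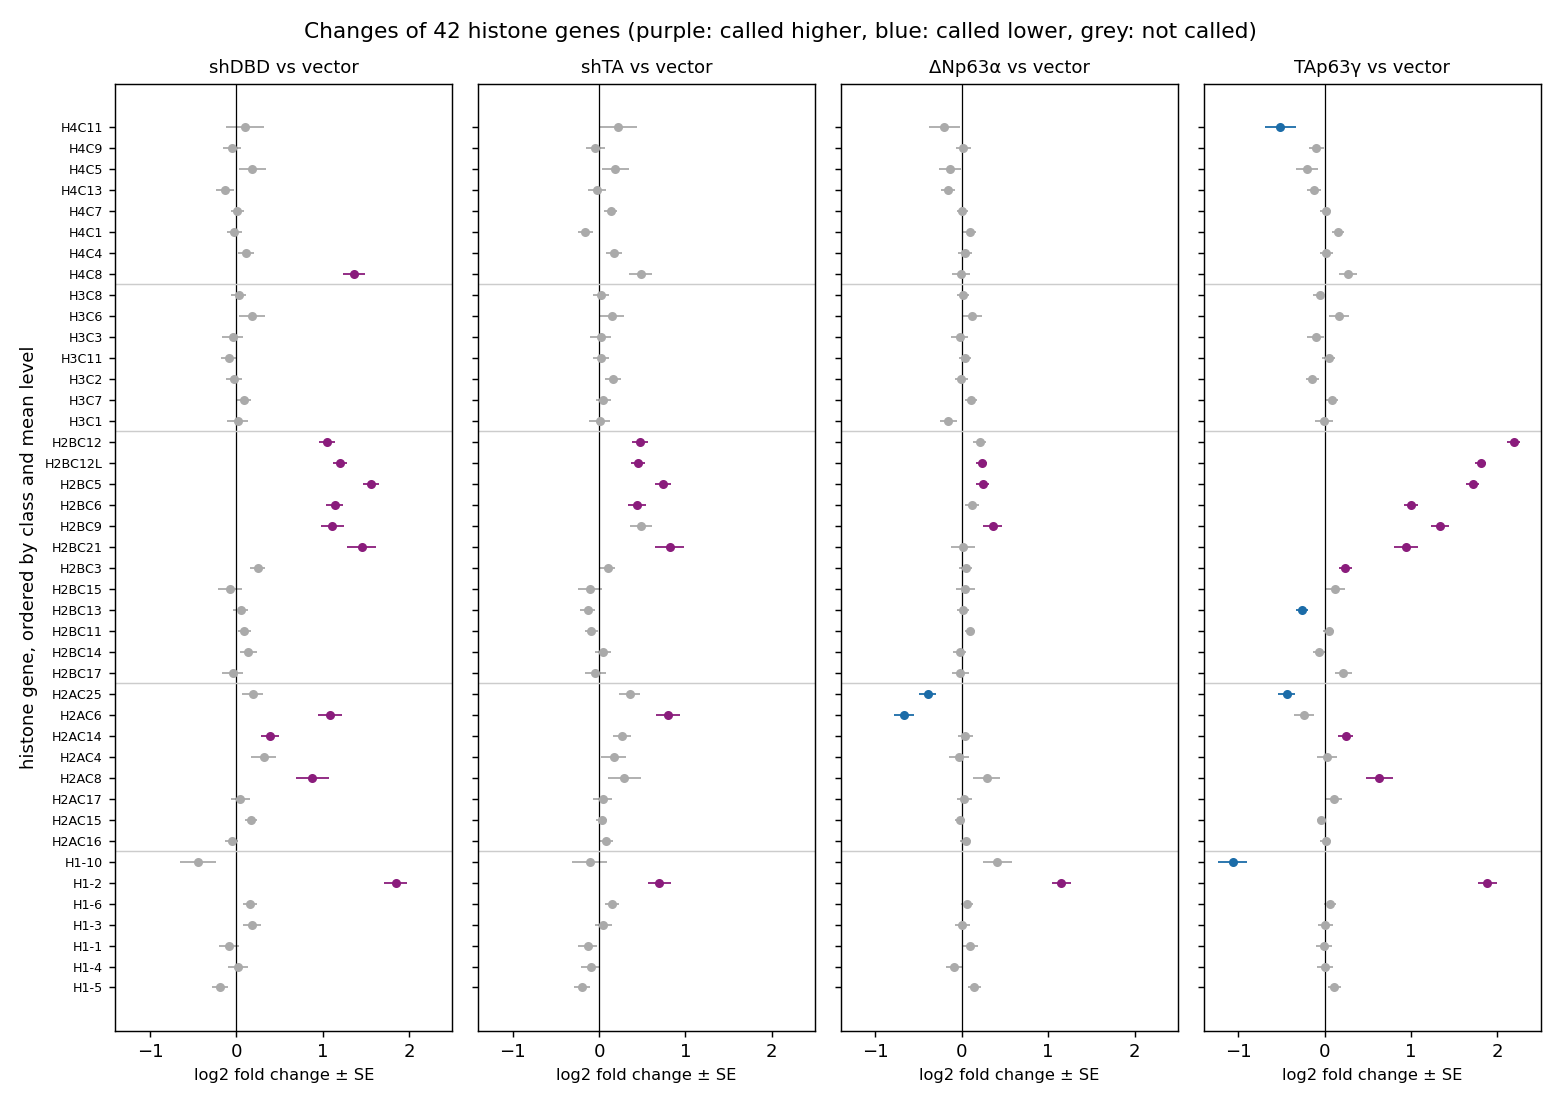
Log2 fold changes (horizontal axes, points with SE bars) of 42 histone genes, ordered by class and mean level, in the 4 comparisons with a vector; purple marks genes called higher, blue called lower and grey not called. The called genes are mostly H2B, H2A and H1-2, while all 7 H3 genes are grey in every panel, between -0.15 and 0.18.

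Among the 42 genes, ΔNp63α overexpression changed few, and H1-2 was the one with a large rise. Of 20 probe sets shared by several histone genes, which are given below, 6 were higher, by up to 1.57. Of the 42 genes, 4 were higher and 2 lower (14.3%), against 28.9% of all genes called (12.3% higher and 16.6% lower). These were all among the 21 genes above the 20th percentile on all arrays, of which 28.6% were called, near the share of all genes. Of the other 21, 0 were called. H1-2 rose by 1.15 ± 0.11 (adjusted p = 9.07e-07). The other higher genes changed little: H2BC9 by 0.36 ± 0.11 (adjusted p = 0.0199), H2BC5 by 0.24 ± 0.08 (adjusted p = 0.0251) and H2BC12L by 0.23 ± 0.07 (adjusted p = 0.0153). H2BC12, at 0.21 ± 0.08, missed the threshold (adjusted p = 0.0511). Among other alternatives, it passed with quantile normalization (0.26, limma, adjusted p = 0.014) and cyclic loess (0.30, adjusted p = 0.00387). H2BC21 was at 0.01 ± 0.14 (adjusted p = 0.973). Arrays did not overlap for 8 of the 42 genes, against 36.5% of all genes.

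H2AC6 was the gene called in opposite directions in the 2 arms when all 15 arrays were fitted together. It read 9.06, 8.74 and 8.97 with vector, 8.14, 8.22 and 8.40 with ΔNp63α and 8.44, 8.87 and 8.74 with TAp63γ. All ΔNp63α arrays were below all vector arrays, whereas TAp63γ arrays overlapped the vector. It fell by 0.67 with ΔNp63α (SE 0.11, adjusted p = 0.000342), and its TAp63γ value was -0.24 ± 0.11 (adjusted p = 0.111).

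H2AC25 read 9.76, 9.48 and 9.67 with vector, 9.16, 9.22 and 9.34 with ΔNp63α and 9.09, 9.34 and 9.16 with TAp63γ. Both isoforms were thus lower than the vector on every array, by 0.40 and 0.44 on the log2 scale, with SE 0.10 for each. With cyclic loess normalization the ΔNp63α change of H2AC25 did not pass. In the knockdown arm H2AC25 read 10.07 and 10.22 with vector, 10.37 and 10.31 with shDBD and 10.36 and 10.64 with shTA. Neither hairpin passed when all 15 arrays were fitted together. With the knockdown arm fitted alone, H2AC25 passed with shTA (0.35, limma, adjusted p = 0.0329), opposite in direction to its change with both isoforms.

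The small rises with ΔNp63α also rested on single arrays. Leaving out vector replicate 1 or vector replicate 2 left H1-2 as the 1 gene called higher, and leaving out ΔNp63α replicate 2 left 2. Those 2 were H1-2 and H1-10 (0.58, adjusted p = 0.0186), and H2BC5, H2BC9 and H2BC12L did not pass without that array. Of 22 S-phase genes, 18 were higher with ΔNp63α and 0 lower (also 0 at an unadjusted p under 0.05). The share called was 81.8%, against 28.9% of all genes. Their median was 0.70, with GINS1, a replicative helicase subunit, up by 1.40 ± 0.08. The histone genes' median was 0.03.

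A direct comparison of the isoforms gave 2 of the 42 genes higher and 10 lower with ΔNp63α than with TAp63γ, where 39.8% of all genes were called (19.2% higher and 20.6% lower). H2BC12 was lower by the most, at -1.98 ± 0.08 (adjusted p = 5.25e-11), rank 45 from the lowest. H2BC12L was at -1.58, H2BC5 at -1.47, H2BC9 at -0.98, H2BC21 at -0.93, H2BC6 at -0.88, H1-2 at -0.74, H2AC6 at -0.43, H4C8 at -0.28 and H2BC3 at -0.20. H1-10 was higher by 1.47 ± 0.17 (adjusted p = 5.19e-06) and H2BC13 by 0.28 ± 0.07. Arrays did not overlap for 14 of the 42 genes, against 45.8% of all genes. H4C8 read 4.07, 4.29 and 4.32 with vector, 4.29, 4.25 and 4.12 with ΔNp63α and 4.51, 4.29 and 4.69 with TAp63γ, all below the 20th percentile and overlapping. With low values raised to that percentile its difference became 0.05 and was not called.

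Across the 4 comparisons with a vector, 26 genes were called in 0, 5 in 1, 3 in 2, 5 in 3 and 3 in all 4. The last were H1-2, H2BC5 and H2BC12L, although the second H2BC5 probe set did not pass with shTA or with ΔNp63α (0.15, adjusted p = 0.229). With the overexpression arm fitted alone, H2BC12L did not pass with ΔNp63α (limma, adjusted p = 0.0505). Higher calls in both hairpins and in TAp63γ were found for 6 genes, and 9 genes were higher with shDBD and with TAp63γ. Comparisons within an arm share their vector arrays; shDBD and TAp63γ share no array. H2AC6 and H4C8 were called higher with shDBD and not with TAp63γ, and the difference between the arms was not tested. H4C8 was at 0.27 with TAp63γ (adjusted p = 0.0529), and passed with quantile normalization (adjusted p = 0.0291) and cyclic loess (adjusted p = 0.0381).

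**Figure D3:**
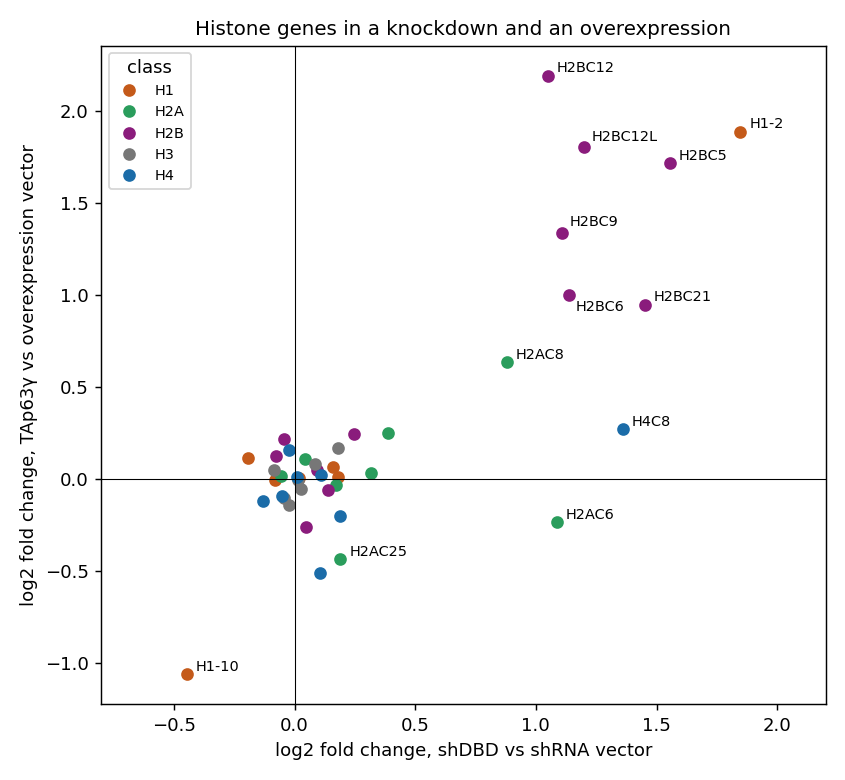
Log2 fold change with TAp63γ against overexpression vector (vertical) by log2 fold change with shDBD against shRNA vector (horizontal) for 42 histone genes, coloured by class; no array is shared between the axes. H1-2 (1.85 and 1.89), H2BC5, H2BC12L and H2BC12 lie at the upper right, H2AC6 (1.09 and -0.24) at the lower right, and most genes near 0 on both axes.

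Of 6 genes listed as also giving polyadenylated transcripts, 5 were measured with a single-symbol probe set: H1-2, H2AC6, H2BC5, H2BC12 and H2BC21. With shDBD 5 of 5 were higher (median 1.45), and with shTA 5 of 5 (median 0.74). With TAp63γ 4 of 5 were higher (median 1.71), and with ΔNp63α 2 were higher and 1 lower (median 0.21). In the direct comparison of isoforms 5 of 5 were lower with ΔNp63α (median -0.93). These medians compare with 0.11, 0.09, 0.04, 0.03 and -0.02 over the 42 histone genes, which include the 5. Over the 21 histone genes above the 20th percentile on all arrays they were 0.19, 0.22, 0.03, 0.04 and -0.05. Of all genes, 11.1% were higher with shDBD, 1.44% with shTA and 20.5% with TAp63γ. With ΔNp63α 12.3% of all genes were higher and 16.6% lower, and 20.6% were lower than with TAp63γ. The list was chosen with earlier results of these data known, and the arrays did not measure tails.

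Replication-dependent histone genes are typically short and intronless. The RefSeq gene model was longer than 1000 bases for 5 genes, among them H2BC5, H2BC12 and H2BC21, and 3 of the 5 were higher with shDBD, 3 with shTA, 1 with ΔNp63α and 3 with TAp63γ. H1-10, another of the 5, was called lower with TAp63γ. Of the 37 models up to 1000 bases, 8, 4, 3 and 7 were higher. The shares of all genes called higher were 11.1%, 1.44%, 12.3% and 20.5%. H2BC12's model overlaps H4C9 on the opposite strand, and H4C9 was at -0.05 with shDBD and -0.10 with TAp63γ, neither of which passed.

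Clustered H2A and H2B genes often stand head to head and share a promoter. Both partners were measured for 3 such H2A and H2B pairs, with starts 194 to 245 bases apart. H2AC14 rose with shDBD (0.39) and TAp63γ (0.25), while its partner H2BC14 was at 0.14 and -0.06 and did not pass. Neither partner was called in the pairs H2AC15 and H2BC15 or H2AC17 and H2BC17. For H2BC9, whose start lies 979 bases from that of H3C7, the shDBD change was 1.11 while that of H3C7 was 0.08 ± 0.09 (adjusted p = 0.606). H2BC14, H2AC15, H2BC17 and H3C7 were above the 20th percentile on 0 of 15 arrays, H2AC17 on 6 and H2BC15 on 7. Partners near background cannot show whether the 2 genes of a pair moved together. Differences between partners were not tested.

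Replication-independent histone variants were lower, or not called, in both arms apart from H2AZ1 with ΔNp63α. Of 9 variants measured, 4 were lower with shDBD and 0 higher (5 and 0 at an unadjusted p under 0.05). They were H2AX, a DNA damage signalling variant (-1.09 ± 0.11, adjusted p = 3.65e-06), the centromeric CENPA (-0.83 ± 0.10), H2AZ1 (-0.79 ± 0.08) and H2AZ2 (-0.47 ± 0.14). With shTA 0 of 9 were called, and 1 was lower at an unadjusted p under 0.05. With TAp63γ 6 were lower and 0 higher (7 and 0 unadjusted), with H1-10, CENPA (-0.9955 ± 0.0806) and H2AJ (-0.71 ± 0.13) the largest. With ΔNp63α H2AJ (-0.50) and H2AX (-0.40) were lower and H2AZ1 (0.24) higher. The share called was 44.4% with shDBD, against 21.3% of all genes, 66.7% with TAp63γ, against 43.4%, and 33.3% with ΔNp63α, which is near the 28.9% of all genes.

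Of 23 histone chaperones, which carry histones to DNA or remove them, 10 were lower and 1 higher with shDBD, led by HJURP, the CENPA chaperone (-1.44 ± 0.11), and ASF1B (-1.28 ± 0.11). With TAp63γ 10 were lower and 5 higher, with ATRX at -1.73 ± 0.13, ASF1A at -1.10 ± 0.08 and ANP32E at -1.06 ± 0.13. With ΔNp63α 9 were higher and 6 lower, with the histone importin IPO4 at -1.02 ± 0.08 and ASF1B at 0.68 ± 0.09. With shTA 0 of 23 passed (3 higher and 2 lower at an unadjusted p under 0.05). The share called was 47.8% with shDBD, against 21.3% of all genes, 65.2% with TAp63γ, against 43.4%, and 65.2% with ΔNp63α, against 28.9%.

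Of 18 genes for histone transcription and 3′ end processing, 2 were higher and 2 lower with shDBD, a share of 22.2% that is near the 21.3% of all genes. HINFP, an activator of H4 genes, was at 0.49 ± 0.08 and the cap-binding subunit NCBP2 at 0.59 ± 0.10, while CDK2 was at -0.41 ± 0.10. Cyclin E2 (CCNE2) was called lower, but read 4.97 and 4.71 with shDBD, below the 20th percentile of those arrays, so the size of its change is uncertain. SLBP, which binds the stem-loop of histone messages, was at -0.05 ± 0.11 (adjusted p = 0.856). With TAp63γ 8 were higher and 2 lower, with CASP8AP2 at -1.26 ± 0.17 and CCNE1 at 0.87 ± 0.08. With ΔNp63α 6 were higher and 4 lower, among them CCNE2 (1.58 ± 0.26) and CDK2 (0.84 ± 0.08). The share called was 55.6% with each, against 43.4% of all genes with TAp63γ and 28.9% with ΔNp63α. With shTA 0 of 18 passed, and 1 was higher and 0 lower at an unadjusted p under 0.05.

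**Figure D4:**
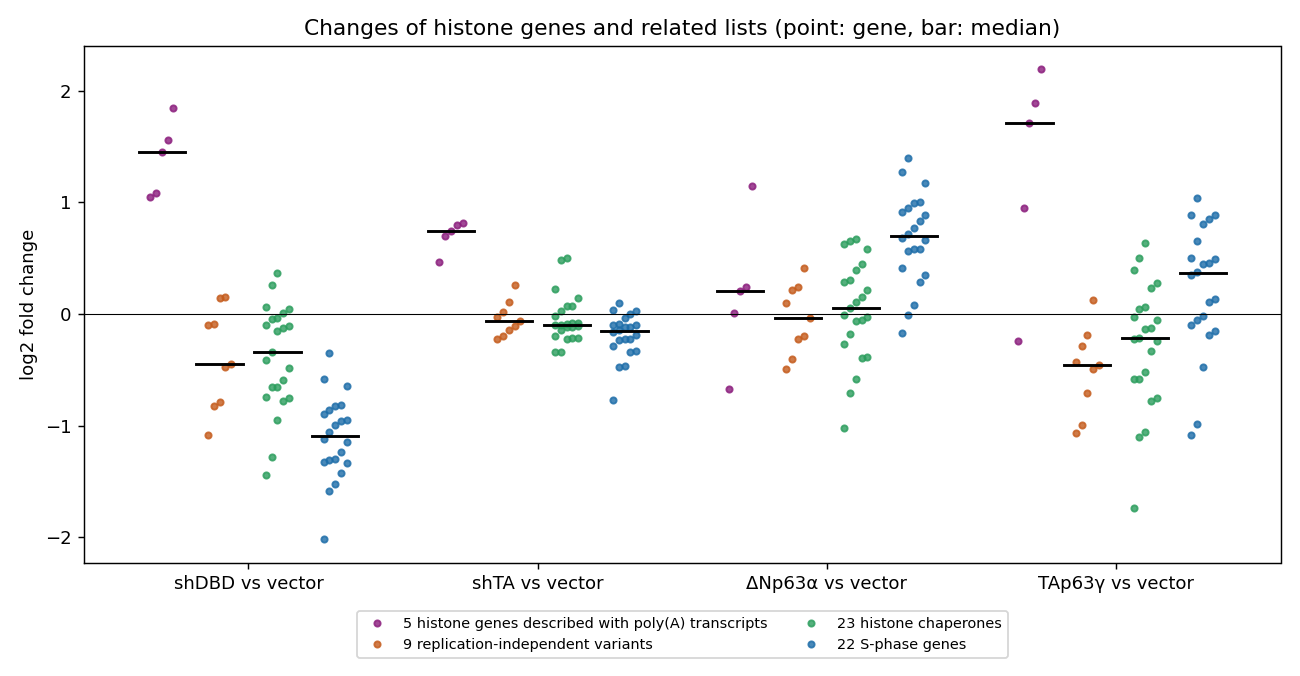
Log2 fold changes (vertical axis) in the 4 comparisons with a vector for 5 histone genes described with poly(A) transcripts, 9 replication-independent variants, 23 chaperones and 22 S-phase genes; points are genes and bars are medians. With shDBD the 5 histone genes have a median of 1.45 and the S-phase genes -1.09, and with ΔNp63α the medians are 0.21 and 0.70.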

How the data were processed

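Gene expression was measured on 15 Affymetrix arrays of 22277 probe sets; an array has no read depth, and the number of arrays limits precision. The deposited values are log2 expression per probe set, made by the authors with RMA, per the submitters' processing notes; whether both arms were normalized together is not given in the sources used here, so groups were compared within an arm. The platform annotation gave 19064 probe sets 1 symbol, and 1043 several; 2108 were not listed in it and 62 were array controls.

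The test was limma 3.58.1 (R 4.3.3), with each of the 6 groups given a mean in 1 fit (9 residual degrees of freedom) and eBayes following the mean level, two-sided and Benjamini-Hochberg adjusted at 0.05 within each comparison. The fit was checked on simulated data.

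Values on every array are given for the 6 histone genes with the largest called change in each vector comparison, those called in at least 3 of 4, those called in opposite directions in different arms, and those listed with polyadenylated transcripts. From the other lists, up to 3 called genes and 1 uncalled gene per comparison were named. Members and lists were chosen with earlier results of these data known. Alternatives covered the variance model, a replicate block, normalization, probe set choice, low values and leaving out each array.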

Additional observations from a re-analysis of the deposited data

How the results depend on the processing

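Restricting all genes to probe sets without the x or s suffix left 30 histone genes, of which 3 were called with shDBD (3 higher), 2 with shTA (2 higher), 2 between the hairpins (2 higher), 2 with ΔNp63α (1 higher, 1 lower), 6 with TAp63γ (4 higher, 2 lower) and 4 between the isoforms (1 higher, 3 lower). Fitting the knockdown arm alone gave 1 lower gene with shDBD and 1 between the hairpins, H1-10 in both. Cyclic loess gave 1 lower with ΔNp63α. A floor at the 20th percentile gave 2 lower with TAp63γ, and 24 called between the isoforms, 16 of them higher; 15 of the 24 sat at the floor on every array compared, so they carry only the difference between array floors. A filter on low values left 1 higher between the isoforms. H4C8 between the isoforms became 0.0468 (adjusted p = 0.438) with the floor.

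Leaving out single arrays, called counts ranged from 9 to 12 with shDBD (higher 9 to 11, lower 0 to 1), 1 to 8 with shTA (all higher), 7 to 9 between the hairpins, 3 to 7 with ΔNp63α (higher 1 to 5, lower 2), 12 to 16 with TAp63γ (higher 9 to 11, lower 3 to 6) and 10 to 13 between the isoforms (higher 2, lower 8 to 11). The single lower gene with shDBD was H1-10 and appeared without ΔNp63α replicate 3. Of all alternative values of the 11 genes described array by array, 1446 kept the call or its absence, 56 lost the call, 29 gained it and 1 reversed direction. A change of sign was counted as a reversal only where the main or the alternative fit called the gene.

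Replicate numbers are shared between groups only as numbers: same-numbered arrays' deviations correlated weakly for knockdown (0.001 to 0.069) and with mixed sign for overexpression (-0.628 to 0.476). Over 18 pairs of differently numbered overexpression arrays they correlated at -0.725 to 0.675. Deviations shared in that arm thus did not follow the replicate number, and a replicate block does not model them. With a replicate block, 11 histone genes were called with shDBD, 5 with shTA, 8 between the hairpins, 5 with ΔNp63α, 13 with TAp63γ and 10 between the isoforms.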

Other observations

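A further 20 histone probe sets carry several gene symbols and were left out of the gene counts; no gene is named from them. With TAp63γ 10 of the 20 were higher and 2 lower, with shDBD 12 and 0, with shTA 5 and 0, and with ΔNp63α 6 and 0. Of all genes, 20.5% were higher and 22.8% lower with TAp63γ, and 11.1% and 10.2% with shDBD. The shares were 1.44% and 0.853% with shTA, and 12.3% and 16.6% with ΔNp63α. In either direction 28.9% of all genes were called with ΔNp63α, and 6 of 20 is near that share. A probe set shared by 2 H2A genes showed the largest change of this kind: its mean was 8.79 with overexpression vector, 10.36 with ΔNp63α and 11.79 with TAp63γ, changes of 1.57 ± 0.09 and 2.997 ± 0.091 (limma, adjusted p = 5.15e-09 and 1.36e-12), and it rose by 1.23 with shDBD and 0.99 with shTA. A second probe set of the same 2 genes rose by 2.68 with TAp63γ and 1.30 with ΔNp63α. These signals exceed the changes of every single-symbol H2A gene, whose highest TAp63γ value was 0.63. A further probe set shared by 2 H2A genes did not pass with either isoform. It was at 0.15 with TAp63γ (limma, adjusted p = 0.3697) and -0.10 with ΔNp63α (adjusted p = 0.6245), and rose by 0.50 with shDBD. A probe set shared by 10 H3 genes was higher by 1.07 ± 0.17 with shDBD (adjusted p = 0.000314), although 0 of 7 single-symbol H3 genes passed (0 also at an unadjusted p under 0.05). A second probe set shared by 10 H3 genes was at 0.21 with shDBD and did not pass (adjusted p = 0.2445).

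Both vector controls are the same cell line, yet H1-2 averaged 8.55 with shRNA vector and 6.47 with overexpression vector, and H2BC5, H2BC21, H2BC12 and H2BC12L differed in the same direction by 1.51 to 1.72. The median difference was 0.54 over the 42 histone genes and 0.27 over all genes, and 0.31 and 0.09 after quantile normalization of all arrays. These differences cross arms that may have been normalized separately and were not tested.

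Repeated values were common in the overexpression arm: 13 of the 42 histone genes (31%) showed the same value, to 3 decimals, on at least 3 of its 9 arrays, against 15.4% of all genes. In the knockdown arm of 6 arrays the figures were 0 of 42 and 0.0836%. Of the lowest 20% of genes by mean level, 34.7% had such repeats in the overexpression arm.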
